A study of Rattus norvegicus with 15 samples.

Results

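The miR-29 family on this array consists of miR-29a, miR-29b and miR-29c, 3 of the 350 rat miRNAs measured, chosen by name. Liver RNA was measured on 15 single-colour arrays, each loaded with RNA pooled from 4 rats. The tested rats had been fed an ethanol diet chronically (EtOH), and the control rats were pair-fed a carbohydrate diet (CHO). Liver was taken from both diets at partial hepatectomy (PHx, surgical removal of part of the liver, after which the remnant grows) or 1, 6, 12 or 24 h afterwards. Before PHx there were 3 EtOH pools and 4 CHO pools, and at each later time 1 EtOH pool and 1 CHO pool. The labels give no strain, sex or age. Of the 8 pools of animals, 7 were measured both before and after PHx, and an array before PHx for the EtOH pool of 24 h was not analysed here. The EtOH pools of 1 h and 6 h shared 1 animal, and so did the CHO pools of 1 h and 6 h. Pools rather than animals were measured, so no p-value below measures the spread between animals. Unless a block is named, the fits below treat arrays as independent, although 7 pools were measured both before and after PHx. The main fit has 1 diet difference for all times after PHx. Its spread therefore also takes in any departure of single times from that difference.

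A miRNA guides a silencing complex to messenger RNAs that pair with its seed, a short run of bases near its 5′ end, and so lowers their translation and stability. The miR-29 family is known for repressing collagens and other genes of the extracellular matrix, as well as the DNA methyltransferases Dnmt3a and Dnmt3b. In liver it is regarded as antifibrotic, and its loss in activated stellate cells, the main collagen producers of the injured liver, is a described feature of fibrosis.

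The 3 mature sequences are printed because the members differ from each other at few bases, so that the array has to separate close relatives. They are RefSeq sequences (assembly GRCr8), written 5′ to 3′ in lower case with the seed, bases 2 to 8, in capitals.

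miR-29a: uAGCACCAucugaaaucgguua

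miR-29b: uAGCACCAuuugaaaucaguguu

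miR-29c: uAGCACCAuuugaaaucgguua

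The same seed occurs in no other of the 693 mature rat miRNA names of that table, so the seed family there is these 3 names. Counted from 1 at the 5′ end, miR-29a differs from miR-29c by the single change C10U. From miR-29c to miR-29b the changes are G18A, U21G and A22U, and miR-29b is 1 base longer, with 23 bases against 22. Cross-hybridisation between these close sequences on the array was not tested. The members come from 4 hairpin genes in 2 pairs, shown here because they set which members can share a primary transcript. The mature sequence is in capitals within each hairpin.

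Mir29a, chr4:60617955-60618042, minus strand: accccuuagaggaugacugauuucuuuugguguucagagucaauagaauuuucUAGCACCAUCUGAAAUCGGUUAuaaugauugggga

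Mir29b1, chr4:60618334-60618414, minus strand: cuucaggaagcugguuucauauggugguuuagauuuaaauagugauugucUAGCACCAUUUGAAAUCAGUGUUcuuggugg

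Mir29b2, chr13:109098831-109098911, plus strand: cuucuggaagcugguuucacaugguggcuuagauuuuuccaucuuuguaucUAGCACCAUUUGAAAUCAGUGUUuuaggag

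Mir29c, chr13:109099359-109099446, plus strand: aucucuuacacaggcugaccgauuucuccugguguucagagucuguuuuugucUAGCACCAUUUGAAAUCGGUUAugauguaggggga

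Mir29a and Mir29b1 lie 291 bases apart on chromosome 4, and Mir29b2 and Mir29c lie 447 bases apart on chromosome 13. In the RefSeq table Mir29b2 and Mir29c overlap the long non-coding RNA gene LOC102550527. Mir29a also overlaps the miRNA gene Mir3556a, Mir29b1 overlaps Mir3587 and Mir29c overlaps Mir3556b. Both miR-29b hairpins hold the same mature sequence, so the array value of miR-29b is the sum of 2 loci, 1 beside miR-29a and 1 beside miR-29c.

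Values are scaled signals in arbitrary units. They are the scanner's background-subtracted spot intensity, averaged per probe and set relative to the 75th percentile of that array, taken over the 185 probes that all arrays detected. A miRNA is represented by its brightest probe. Between 108 and 131 miRNAs were detected per array, 134 were detected on at least 3 arrays and tested, and the unscaled 75th percentile lay between 236.5 and 515.5. The lowest was on the EtOH array before PHx of the third pool, where replicate spots of a probe varied by 36.0% (median), and by 5.95% to 6.99% on the 14 others. The arrays lay on 2 slides, with all pools of 1 h and 6 h on slide 1 and all pools of 12 h and 24 h on slide 2. In whole liver, fewer cells of a type and less RNA per cell cannot be told apart. The hepatocyte miRNAs miR-122, miR-192 and miR-194 were all tested, and their summed signal was 35965 to 42878 over the 7 arrays before PHx, so the defining miRNAs of the labelled tissue were present.

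All 3 members were detected on 15 of 15 arrays. MiR-29a ranked 5 or 6 of all miRNAs by the software's total signal, with 2.20% to 2.58% of the array's sum. MiR-29c ranked between 14 and 18 with at least 0.851%, and miR-29b between 52 and 59 with 0.0916% to 0.155%. These ranks order signals of different probes, which need not order the amounts of RNA. The spread over all 15 arrays was small for miR-29a, with a coefficient of variation of 5.77%, and for miR-29c, with 8.15%. For miR-29b it was 14.0%, close to the median of 13.9% over the 134 tested miRNAs. Of the opposite strands of the same hairpins, miR-29a*, miR-29b-1* and miR-29b-2* were detected on 0 arrays. MiR-29c* was detected on 7 of 15 arrays, with scaled signals from 7.08 to 15.4, near the floor of 9.61 set at the detection limit, and did not pass the test in any comparison below.

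MiR-29b had its highest signals 24 h after PHx, in the pools of both diets, while miR-29a and miR-29c stayed within the range of their other arrays. The change in CHO livers alone did not pass the test described below. Before PHx, miR-29b had scaled signals of 86.2, 71.5 and 76.7 in EtOH pools and 86.9, 88.9, 82.0 and 93.0 in CHO pools. At 1 h it had 85.4 in the EtOH pool and 103 in the CHO pool, and at 6 h 75.6 in the EtOH pool and 85.7 in the CHO pool. At 12 h it had 94.2 in the EtOH pool and 88.3 in the CHO pool, and at 24 h 118 in the EtOH pool and 109 in the CHO pool. Both arrays of 24 h lay above all 13 other arrays, as was so for 7.46% of the tested miRNAs, and the CHO array of 1 h came next.

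A limma fit to all 15 arrays had separate terms for each time and for the diets on either side of PHx, and in it miR-29b rose at 24 h by 0.46 on the log2 scale (SE 0.0992, 95% interval 0.24 to 0.67), which is a 1.37-fold change. The adjusted p was 0.00886, by limma with Benjamini-Hochberg adjustment over the 134 tested miRNAs. It was the only one of the 3 members to pass the threshold of 0.05, where 13.4% of all tested miRNAs did, 16 higher and 2 lower. Under quantile normalization that split was 7 higher and 5 lower, and in the authors' deposited values 7 and 6. The median change of all tested miRNAs at 24 h was 0.019. By p-value miR-29b was in place 11 of 134, and by size of rise in place 14.

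**Figure D1:**
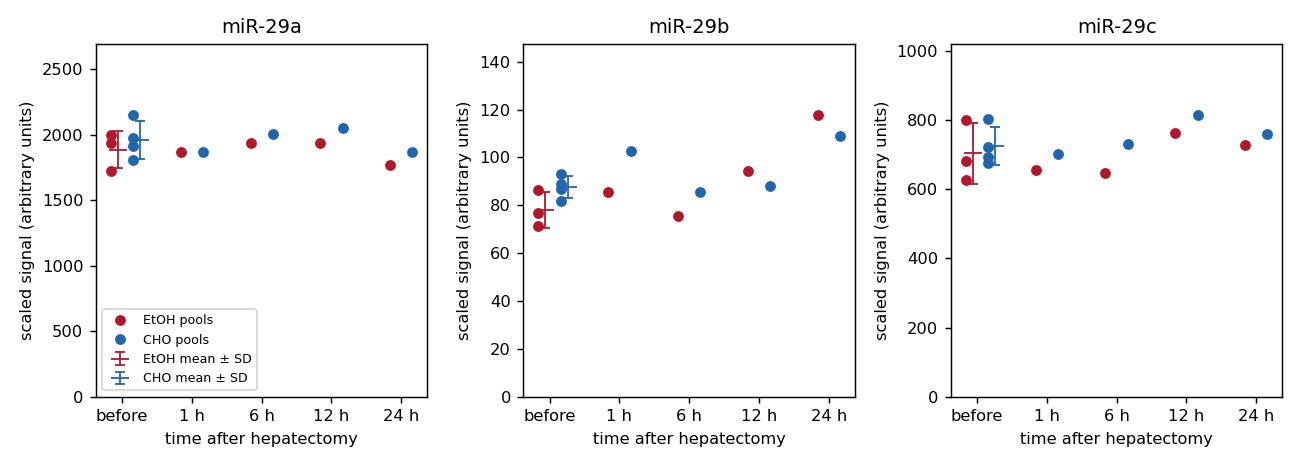
Scaled signal (arbitrary units, axes from 0) of miR-29a, miR-29b and miR-29c on each of the 15 arrays by time after PHx, with EtOH pools left of CHO pools; points are pools and bars the mean ± SD before PHx. The 24 h values of miR-29b, 118 in the EtOH pool and 109 in the CHO pool, are the 2 highest of its panel, whereas miR-29a and miR-29c show no such separation.

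The rise rests on few pools. Without the EtOH pool of 24 h it was 0.34 (adjusted p = 0.210), and without the CHO pool of 24 h it was 0.57 (adjusted p = 0.0393). With the pool of animals as a block it was 0.24 (adjusted p = 0.791). In that fit the EtOH pool of 24 h has no partner array and adds nothing to the change, only 2 residual degrees of freedom remain, and 0 of the 134 miRNAs passed. With the set of EtOH and CHO pools of 1 time as a block it was 0.36 (adjusted p = 0.487), a fit in which 5 of the 134 miRNAs passed. With slide as a block the rise was 0.47 (adjusted p = 0.0257), and within slide 2 alone it was 0.47 (adjusted p = 0.0723).

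The change was also followed in each diet, with 10 separate cells of diet and time and 5 residual degrees of freedom, where a lone pool is taken to scatter as much as those before PHx. In EtOH livers miR-29b was 0.60 higher at 24 h (SE 0.121, adjusted p = 0.0350 by limma), a comparison between a single 24 h pool, whose own spread was not measured, and 3 pools of other animals, in which 7.46% of miRNAs passed. In CHO livers the change was 0.32 (SE 0.117, adjusted p = 0.231), and 5.22% passed. The EtOH change exceeded the CHO change by 0.28, with an interval from -0.12 to 0.69 and an adjusted p of 0.902 by limma, so the diets were not shown to differ, and 0% of all miRNAs passed, with 4 at an unadjusted p under 0.05. No other change of a member within a diet passed at any time. The share of all miRNAs that passed was 0% at 1 h, 1.49% at 6 h and 5.97% at 12 h in EtOH livers, and 0.746%, 0.746% and 6.72% at these times in CHO livers. The EtOH call was lost under each of the other 8 ways of deriving the values that were run for this fit, and without any of 6 single arrays, the EtOH pool of 24 h among them.

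Array pairs from the same animals were also compared. Within the CHO pool of 24 h, the only pool of that time measured on both sides of PHx, miR-29b was 0.23 higher after PHx on the log2 scale. Over the 7 paired pools it was higher after PHx in 5, with differences from -0.05 to 0.30, and above the median of all tested miRNAs in 4. MiR-29c was likewise higher after PHx in 5 of the 7, with differences from -0.07 to 0.11, and above that median in 5. MiR-29a was higher in 3 of the 7, so the count of pairs does not set miR-29b apart from miR-29c. The largest miR-29b difference, 0.30, was that of the EtOH pool of 12 h, whose partner before PHx is the array with the uneven spots. The CHO pool of 1 h followed with 0.24.

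At the earlier times miR-29b did not pass the test. Its change was 0.18 at 1 h (adjusted p = 0.925 by limma), -0.04 at 6 h (adjusted p = 0.892) and 0.14 at 12 h (adjusted p = 0.545). Of all tested miRNAs 0% passed at 1 h (4 at an unadjusted p under 0.05, limma), 4.48% at 6 h and 5.97% at 12 h. The mean over the 4 times was 0.19 above before PHx (SE 0.0642, unadjusted p = 0.0145, adjusted p = 0.122, limma), a comparison in which 6.72% of miRNAs passed. The last time exceeded the first by 0.27 (unadjusted p = 0.0476, adjusted p = 0.256, limma), where again 6.72% passed, so no steady rise with time was established.

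MiR-29a, the brightest member, changed little at any time. Before PHx it had 1934, 1993 and 1725 in EtOH pools and 1971, 1911, 2153 and 1803 in CHO pools. After PHx the EtOH pools had 1867 at 1 h, 1938 at 6 h, 1938 at 12 h and 1765 at 24 h, and the CHO pools had 1866 at 1 h, 2005 at 6 h, 2050 at 12 h and 1864 at 24 h. All 8 pools after PHx lay inside the range of the 7 pools before it. Its changes were -0.04 at 1 h, 0.04 at 6 h, 0.06 at 12 h and -0.08 at 24 h on the log2 scale. None passed, with adjusted p-values between 0.642 and 0.980 by limma. The 95% interval at 24 h ran from -0.26 to 0.10, so a rise of the size of the miR-29b estimate lay outside it.

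MiR-29c showed no change with time that passed either. Before PHx it had 628, 682 and 802 in EtOH pools and 695, 677, 802 and 722 in CHO pools. After PHx the EtOH pools had 656 at 1 h, 649 at 6 h, 764 at 12 h and 729 at 24 h, and the CHO pools had 702 at 1 h, 731 at 6 h, 816 at 12 h and 759 at 24 h. Only the CHO pool of 12 h lay outside the range before PHx, slightly above it. The changes were -0.07 at 1 h, -0.05 at 6 h, 0.15 at 12 h and 0.06 at 24 h on the log2 scale, with adjusted p-values between 0.521 and 0.980 by limma.

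With its brightest probe, miR-29c moved with the slide. The 8 arrays of slide 1 had 628 to 731 and the 7 arrays of slide 2 had 722 to 816. Among the arrays before PHx the slides did not overlap, with 628 to 695 on slide 1 (4 arrays) and 722 to 802 on slide 2 (3 arrays). The EtOH array at 802 is the one with the uneven spots, where the second probe of miR-29c had 519. With that probe the slides overlapped before PHx, with 608 to 661 on slide 1 and 519 to 748 on slide 2. With slide as a block the change of miR-29c at 12 h was 0.030 in place of 0.15, and that at 24 h was -0.056 in place of 0.06. Neither passed. Slides overlapped for miR-29a, with 1866 to 2005 on slide 1 and 1725 to 2153 on slide 2, and for miR-29b, with 71.5 to 103 and 76.7 to 118.

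**Figure D2:**
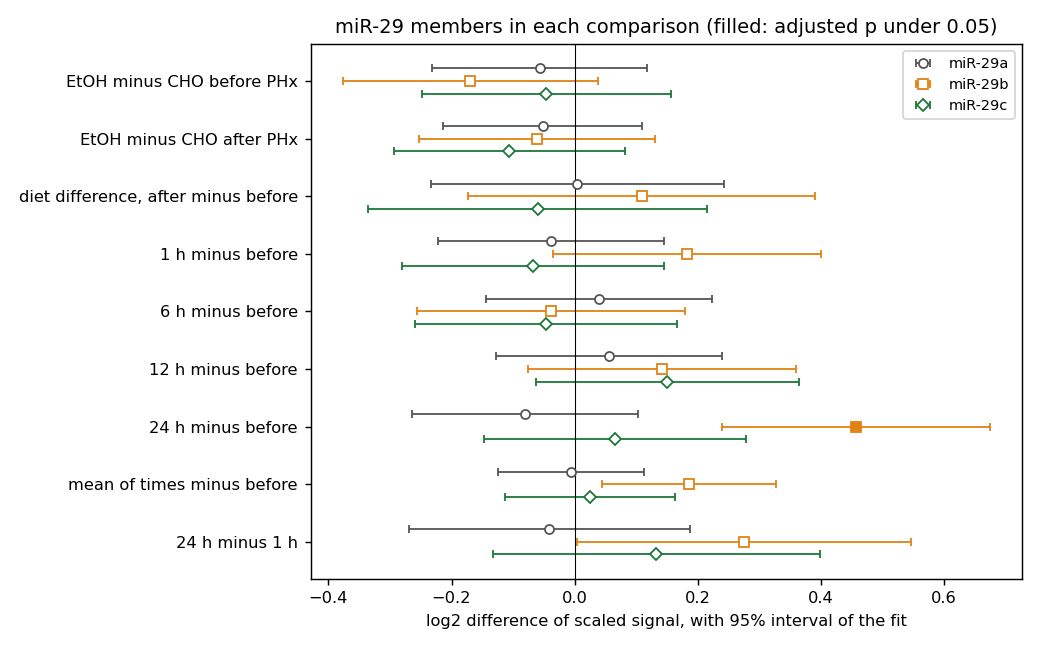
Log2 difference of scaled signal with its 95% interval from the limma fit for each member (circles miR-29a, squares miR-29b, diamonds miR-29c) in 9 comparisons; filled symbols passed an adjusted p of 0.05. The only filled symbol is miR-29b for 24 h minus before PHx, at 0.46, and the intervals of miR-29a and miR-29c include 0 throughout.

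No member differed by diet past the threshold. Before PHx the EtOH and CHO pools overlapped for each member, as the values above show, while 21.6% of the tested miRNAs had every EtOH pool below every CHO pool. The means were 1884 ± 141 in EtOH pools and 1959 ± 146 in CHO pools for miR-29a (SD, n = 3 and n = 4). The log2 difference between EtOH and CHO pools before PHx was -0.06 for miR-29a (adjusted p = 0.680 by limma), -0.17 for miR-29b (adjusted p = 0.278) and -0.05 for miR-29c (adjusted p = 0.809). In that comparison 15.7% of the tested miRNAs passed, 4 higher and 17 lower in EtOH livers, with a median difference of -0.08. The 95% intervals were -0.23 to 0.12 for miR-29a, -0.38 to 0.04 for miR-29b and -0.25 to 0.16 for miR-29c.

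After PHx, EtOH livers lay below CHO livers in miR-29c at each of the 4 times, but the averaged difference of -0.11 (SE 0.0853) did not pass (adjusted p = 0.463 by limma). The difference after PHx was -0.05 for miR-29a and -0.06 for miR-29b, with an adjusted p of 0.705 for each by limma. Of the tested miRNAs 7.46% passed, which is 10, but this number ran from 1 to 33 with single arrays left out. It was 1 without the EtOH or the CHO pool of 1 h or of 6 h, 2 without the first or the second CHO array before PHx, and 33 without the EtOH array with the uneven spots. The diet difference itself did not change with hepatectomy past the threshold in any member. That change was 0.0045 for miR-29a, 0.11 for miR-29b and -0.06 for miR-29c, with adjusted p-values between 0.880 and 0.990 by limma, and 0% of all tested miRNAs passed, with 9 at an unadjusted p under 0.05. At single times none of the 12 tests of a member by diet passed. The share of all tested miRNAs that did was 0.746% at 1 h, 0% at 6 h, 3.73% at 12 h and 0% at 24 h.

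Comparing members within an array removes the scaling between arrays. For each tested miRNA the log2 ratio to miR-29a was fitted with the same terms, a test added after the change of miR-29b had been seen. Relative to miR-29a, miR-29b rose by 0.54 at 24 h (SE 0.135, adjusted p = 0.0219 by limma over 133 miRNAs), where 13.5% of miRNAs passed. Its log2 ratio to miR-29a was -3.90 in the EtOH pool and -4.10 in the CHO pool of 24 h, against -4.80 to -4.18 on the other 13 arrays, which lay below both; 12% of miRNAs had both 24 h arrays above all others in this ratio. Relative to miR-29c, miR-29b differed by 0.39 at 24 h (SE 0.144, adjusted p = 0.148), where 6.77% passed. That ratio was -2.63 in the EtOH pool and -2.80 in the CHO pool of 24 h, and the CHO pool of 1 h, at -2.77, lay between them, whereas 4.51% of miRNAs had both 24 h arrays above all others. With slide as a block the difference relative to miR-29c was 0.52 (adjusted p = 0.0356 by limma). The change of miR-29c relative to miR-29a at 24 h was 0.14 (adjusted p = 0.492).

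The call relative to miR-29a was lost under 11 of the 14 other settings, with the rise kept in direction under each. The remaining settings were the percentile over all probes, no scaling and no filter on dim probes. Scaling of an array cancels in this ratio, and the filter only sets which miRNAs are tested, so these settings could not test it. Among these 14 settings the call was thus lost under each that could test it. With single arrays left out, the call was lost without either pool of 24 h and kept in the other 13 of 15 fits. The ratios between members were also compared by diet before PHx. EtOH minus CHO was -0.11 for miR-29b over miR-29a (exact permutation test, two-sided, p = 0.457), -0.12 for miR-29b over miR-29c (exact p = 0.571) and 0.011 for miR-29c over miR-29a (exact p = 0.971). With 3 against 4 pools this test cannot give a p below 0.0571, so it could not pass whatever the values.

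**Figure D3:**
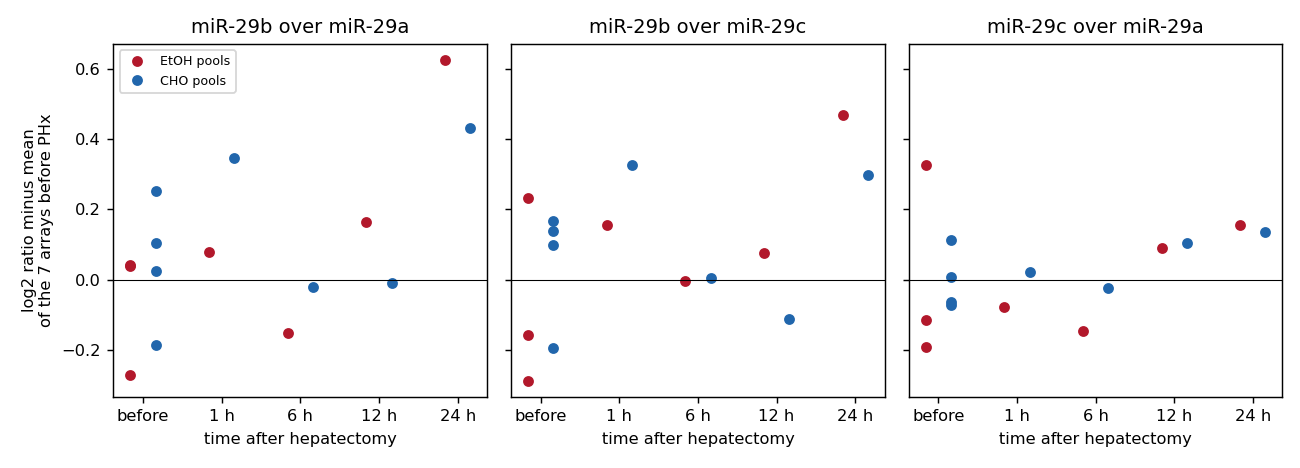
Log2 ratio between members within each array, minus its mean over the 7 arrays before PHx, by time after PHx, with EtOH pools left of CHO pools and 1 point per pool. In miR-29b over miR-29a the 2 pools of 24 h are the highest points of the panel, in miR-29b over miR-29c the CHO pool of 1 h lies between them, and in miR-29c over miR-29a the highest point is the EtOH pool before PHx whose array has the uneven spots.

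Each member has 2 probes on the array. The second probe of miR-29b had 92.9 in the EtOH pool and 90.4 in the CHO pool of 24 h, again above all 13 other arrays, of which the highest was the CHO pool of 1 h with 82.0. With second probes the miR-29b change at 24 h was 0.40 and passed (adjusted p = 0.0388 by limma). For miR-29c the second probe gave 0.23 at 12 h in place of 0.15 (unadjusted p = 0.0243, adjusted p = 0.142, limma), and 0.14 at 24 h. That of miR-29a gave 0.17 at 12 h in place of 0.06 (adjusted p = 0.290 by limma), and -0.00075 at 24 h. None of these passed. The probes parted in the diet comparison before PHx, for miR-29b and for miR-29c. There the second probe of miR-29b had 71.4, 61.4 and 74.9 in EtOH pools and 71.8, 73.5, 61.0 and 72.6 in CHO pools, a log2 difference of -0.01 in place of -0.17. The second probe of miR-29c had 608, 661 and 519 in EtOH pools and 661, 656, 748 and 686 in CHO pools. Its difference was -0.21 in place of -0.05 and did not pass (adjusted p = 0.130 by limma). The array with the uneven spots holds its lowest value, 519, whereas the brightest probe had 802 there. For miR-29a the second probe gave -0.10 in place of -0.06. With second probes the log2 ratio of miR-29c to miR-29a was highest in the CHO pool of 1 h (-0.91).

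**Figure D4:**
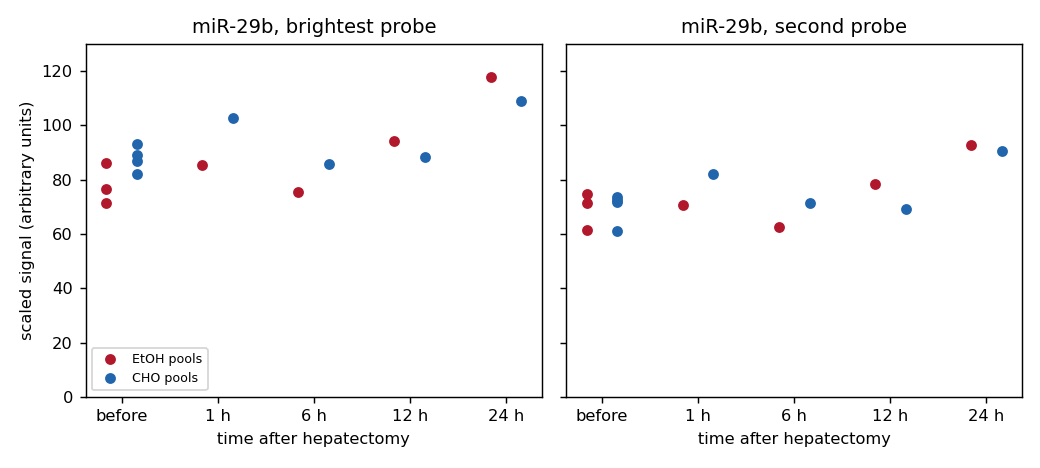
Scaled signal (arbitrary units, axis from 0) of the brightest and the second probe of miR-29b on each of the 15 arrays by time after PHx, EtOH pools left of CHO pools. Both probes have their 2 highest arrays at 24 h, 118 and 109 for the brightest probe and 92.9 and 90.4 for the second, and the EtOH and CHO pools before PHx overlap with both probes.

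Across 14 other settings of scaling, background, probe choice, filter and block, the 24 h change of miR-29b was above 0 in 14 and ranged from 0.24 to 0.78. The 0.78 came from normexp correction on local background. In that setting the median 24 h change of all tested miRNAs was 0.73 and 0 of them passed, so most of that value was shared. It passed in 4 of them, those with the mean over probes, the second probe, no filter on dim probes and slide as a block. Without the filter the miR-29b values are the reported ones and only the set of tested miRNAs differs, and the mean over probes includes the brightest probe. No other way of scaling or of correcting the background kept the call. The adjusted p ranged from 0.0117 to 0.791.

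**Figure D5:**
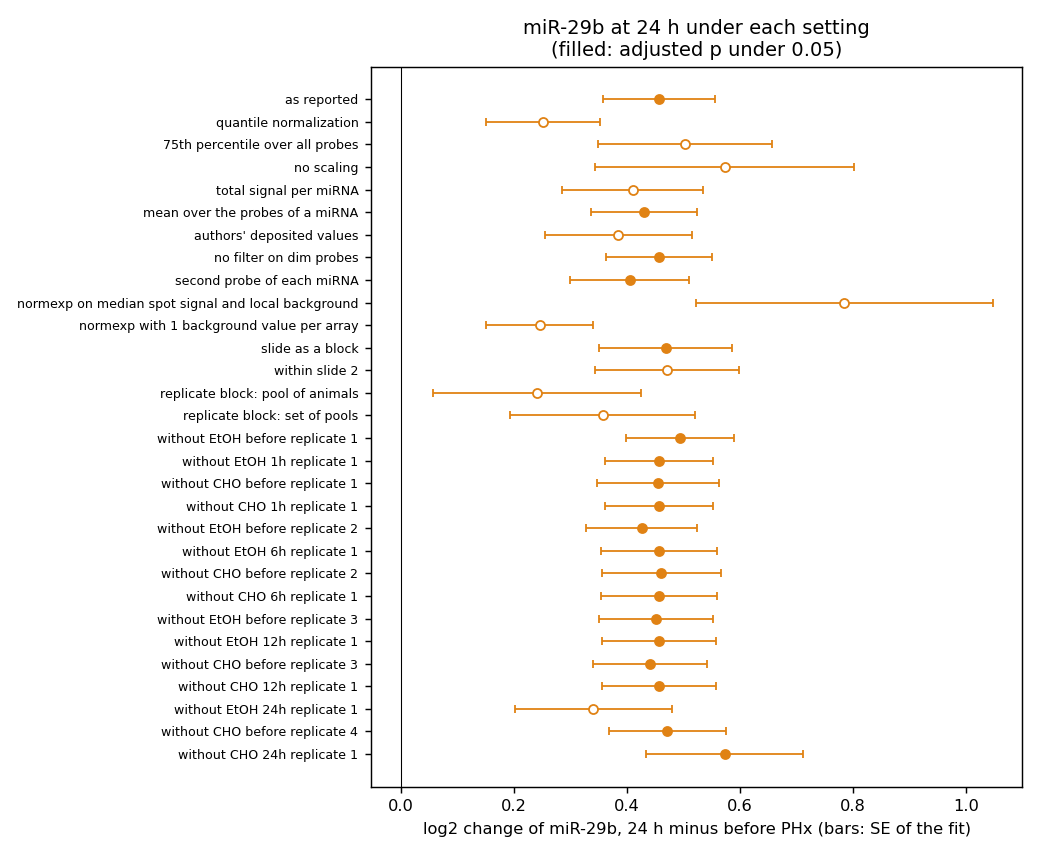
Log2 change of miR-29b at 24 h against before PHx under the reported setting, 14 alternatives and with each of the 15 arrays left out; bars are the SE of the fit and filled points passed an adjusted p of 0.05. All points lie above 0, and the alternatives run from 0.24 to 0.78. The highest is normexp on local background, where the median of all tested miRNAs was 0.73. Of the 15 fits with an array left out only that without the EtOH pool of 24 h, at 0.34, has an open point.

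With their brightest probes, the 3 members did not move together over the arrays. Over the 15 arrays, which share the scaling and the 2 slides, the Pearson correlation of log2 scaled signal was -0.378 between miR-29a and miR-29b, 0.0929 between miR-29a and miR-29c and 0.167 between miR-29b and miR-29c. Spearman's rho was -0.446, 0.114 and 0.218 for the same pairs. Among 97 miRNAs detected on all arrays, those with the highest Pearson correlation to miR-29a were let-7a (0.758), let-7c (0.747) and let-7f (0.726), and the lowest was miR-194 (-0.745). For miR-29b the nearest were miR-101b (0.852), miR-126* (0.835) and miR-106b (0.811), and the lowest was miR-31 (-0.793). Of these, miR-106b rose at 24 h by 0.51 (adjusted p = 0.00109 by limma) and miR-31 fell by 0.30 (adjusted p = 0.0347), a call lost without any of 10 single arrays, while miR-101b had a change of 0.32 that did not pass (adjusted p = 0.0565). For miR-29c the nearest were miR-878 (0.904), miR-27a (0.883) and miR-98 (0.859), and the lowest was miR-22 (-0.796). The lists of the 3 members share no name. All these correlations are of brightest probes. The second probes of miR-29a and miR-29c were both lowest on the array with the uneven spots, with 1197 and 519, where the brightest had 1725 and 802. Both second probes were highest in the CHO pool of 12 h, before PHx (1606 and 748) and after it (1579 and 789). The second probes of these 2 members thus had their extremes on the same arrays. The low correlation of miR-29a with miR-29c is therefore given for the brightest probes only and is not established for the miRNAs themselves.

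A list of 25 other miRNAs linked to liver fibrosis gives the setting of the family. Of these 22 were tested. At 24 h 4 rose, where 11.9% of all tested miRNAs did, and 0 fell, with a median change of 0.12 against 0.019 over all tested miRNAs. The 4 were miR-21, which is known to promote fibrosis and growth (1.11, adjusted p = 6.94e-05 by limma), the p53 target miR-34a (1.20), miR-19b (0.59) and miR-221, known to promote the cell cycle (0.50). The miR-34a call was lost without the CHO pool of 24 h and the miR-19b call without the EtOH pool of 24 h. MiR-21 and miR-221 also passed at 12 h, with rises of 0.82 (adjusted p = 0.000633 by limma) and 0.46 (adjusted p = 0.00491), where 5.97% of all tested miRNAs passed and no miR-29 member did. At 6 h, where 4.48% passed, they had changes of 0.51 (adjusted p = 0.0253 by limma) and 0.41 (adjusted p = 0.0188), and both calls were lost without either pool of 6 h. Leaving out the CHO array before PHx of the second pool also ended the miR-21 call at 6 h, and leaving out the EtOH pool of 12 h ended that of miR-221 at 12 h. None of the list passed at 1 h. Before PHx 4 of the 22 were lower in EtOH livers, against 12.7% of all tested miRNAs, namely miR-19b (-0.69), miR-200b (-0.57), miR-200a (-0.45) and miR-221 (-0.34), again with no miR-29 member among the miRNAs that passed. The miR-200a and miR-221 calls were lost without the EtOH array before PHx of the second pool, and that of miR-200a also without the CHO array of the second pool. After PHx miR-34a was higher in EtOH livers (0.95, adjusted p = 0.0416 by limma) and miR-19b lower (-0.51, adjusted p = 0.0318), where 7.46% of all tested miRNAs passed. The miR-34a call was lost without any of 9 single arrays and the miR-19b call without any of 6, the EtOH and CHO pools of 1 h and 6 h and the first 2 CHO pools before PHx among them in both cases. The number of all tested miRNAs that passed also rested on single arrays, with 11 in place of 18 at 24 h without the EtOH pool of that time, 0 and 1 in place of 6 at 6 h without the EtOH or the CHO pool of 6 h, and 34 in place of 21 by diet before PHx without the EtOH array with the uneven spots.

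Markers of other liver cells gave these values beside the miR-29b result. Of 5 mesenchymal miRNAs, which include those of stellate cells, 5 were tested and 0 passed at 24 h, and their summed signal was 543 to 581 in the 24 h pools, against 525 to 668 before PHx. Of 6 leukocyte miRNAs 4 were tested and miR-223 rose at 24 h by 0.60 (adjusted p = 0.00875 by limma), a call lost without the EtOH pool of 24 h. The list as a whole did not rise, with a median change of -0.03 against 0.019 over all tested miRNAs. Its members miR-150 (-0.37, adjusted p = 0.0794 by limma) and miR-146a (-0.15) went the other way without passing. The summed signals of the list were 315 to 336 in the 24 h pools and 294 to 365 before PHx. The endothelial pair miR-126 and miR-126* summed to 1225 to 1236 in the 24 h pools and 1064 to 1300 before PHx, and 0 of 2 passed. The erythroid list summed to 361 to 873 in the 24 h pools and 621 to 1230 before PHx, with 0 of 2 tested members passing, and the epithelial list to 62.0 to 64.0 and 49.1 to 83.0, with 0 of 3. The hepatocyte list summed to 38342 to 39646 in the 24 h pools, inside its range before PHx, with 0 of 3 passing. The part of any of these cells in the miR-29b change was not tested.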

How the data were processed

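Spot intensity in the deposited scanner files already has its local background subtracted by Agilent Feature Extraction. Per the file headers its version is 10.5.1.1, whereas the submitters' processing notes name 10.7.3.1. A further table deposited by the authors gives log2 values per miRNA, and neither labels nor files say how they were scaled or centred. Its largest values are nearly the same on every array, and it served as an alternative.

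Control spots and 2503 spots that the software marked as outliers (2.38%) were left out. A probe was detected where the share of its spots well above background reached 0.5. Mean processed signals per probe were scaled, floored at 9.61 and taken to log2. The 216 miRNAs detected on fewer than 3 arrays were not tested. The 7-coefficient model was run in limma 3.58.1 under R 4.3.3, and the fit was tested on simulated data. Arrays before and after PHx are paired where their labels name the same diet and pool time, and such labels list the same animals. These array pairs had a consensus correlation of 0.114. Precision is limited by the number of arrays: the median SE of a change at 1 time was 0.12. The members are those of the family's names, and named relatives were the 3 nearest and the lowest correlation per member, plus list members that passed. Members and lists were chosen with earlier results of these data known. The planned normexp correction was run on the median spot signal. Array names give no strand arm; the printed sequences are the 3p arms of the same names.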

Additional observations from a re-analysis of the deposited data

How the results depend on the processing

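The number of members that passed at 24 h, 1 as reported, was 0 under quantile normalization, the 75th percentile over all probes, no scaling, the software's total signal, the authors' deposited values, both normexp settings, slide 2 alone and both replicate blocks, and 0 to 1 with single arrays left out. The number that passed within a diet, 1 as reported, was 0 under each of the 8 alternatives run and 0 to 1 with single arrays left out. The 10-cell comparisons were not run with normexp or blocks. With no scaling 3 members passed for diet before PHx, when the median of all miRNAs was -0.53 in place of -0.08. In that comparison quantile normalization gave 4 higher and 5 lower calls, and the authors' deposited values 7 and 7. The cause was not tested.

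Relative to miR-29a, the 24 h rise of miR-29b did not pass at 0.31 under quantile normalization, 0.48 with total signal, 0.47 with the mean over probes, 0.33 in the authors' deposited values, 0.41 with the second probe, 1.38 and 0.30 under normexp on local background and with 1 background value, 0.51 with slide as a block, 0.49 within slide 2, 0.17 with the pool of animals as a replicate block and 0.30 with the set of pools. With single arrays left out it ran from 0.40 to 0.67. Relative to miR-29c it passed with slide as a block at 0.52 and ran from 0.31 to 0.48 with single arrays left out, passing without the EtOH array before PHx of the first pool (0.47). The diet ratio before PHx changed sign with total signal to 0.022 for miR-29b over miR-29c and to -0.044 for miR-29c over miR-29a, and the second ran from -0.15 to 0.11 with single arrays left out.

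The other changes of sign, 89 in all, belong to differences of at most 0.18 as reported, and none passed under either setting. Normexp on local background followed the main values weakly, with a lowest correlation over arrays of 0.683, and the normexp run with 1 background value and the second-probe run were chosen after seeing the data. Under quantile normalization, miR-29a came to 0.047 for EtOH minus CHO after PHx, -0.064 for 6 h, -0.017 for 12 h and 0.047 for 24 h minus 1 h. The miR-29b values were 0.056 for EtOH minus CHO after PHx and -0.15 for 12 h. MiR-29c stood at 0.057 for EtOH minus CHO before PHx and -0.0017 for the mean over times. With the 75th percentile over all probes, miR-29a came to 0.0038 for EtOH minus CHO before PHx, 0.20 for EtOH minus CHO after PHx, -0.095 for 6 h, -0.16 for 12 h and 0.028 for 24 h minus 1 h. For miR-29b the values were 0.19 for EtOH minus CHO after PHx and -0.069 for 12 h. The miR-29c values were 0.014 for EtOH minus CHO before PHx, 0.14 for EtOH minus CHO after PHx, -0.060 for 12 h, -0.055 for the mean over times and 0.13 for the change in diet difference. With no scaling, miR-29a came to 0.18 for 1 h, 0.036 for 24 h and 0.12 for the mean over times. MiR-29c came to 0.15 for 1 h and 0.48 for the change in diet difference. With the software's total signal, miR-29a came to 0.0078 for the mean over times. That of miR-29c was 0.024 for the change in diet difference. With the mean over probes, miR-29a came to 0.022 for the mean over times and 0.0082 for 24 h minus 1 h. MiR-29c came to 0.011 for 6 h and 0.014 for the change in diet difference. In the authors' deposited values, miR-29a came to 0.039 for EtOH minus CHO before PHx, 0.023 for EtOH minus CHO after PHx, 0.051 for 24 h, 0.016 for the mean over times, -0.016 for the change in diet difference and 0.094 for 24 h minus 1 h. The miR-29b values were 0.020 for EtOH minus CHO before PHx, 0.13 for EtOH minus CHO after PHx and -0.13 for 12 h. MiR-29c stood at 0.028 for 1 h. With the second probe, miR-29a came to 0.049 for the mean over times and 0.058 for 24 h minus 1 h. For miR-29b the value was -0.033 for the change in diet difference. The miR-29c values were 0.025 for 1 h, 0.068 for 6 h and 0.088 for the change in diet difference. Under normexp on local background, miR-29a came to 0.25 for EtOH minus CHO after PHx and 0.026 for 1 h. MiR-29b came to 0.22 for EtOH minus CHO before PHx, -0.0070 for 1 h, -0.045 for 12 h and -0.54 for the change in diet difference. For miR-29c the values were 0.066 for EtOH minus CHO after PHx, -0.21 for 24 h, -0.025 for the mean over times, 0.15 for the change in diet difference and -0.18 for 24 h minus 1 h. Under normexp with 1 background value per array, miR-29a came to 0.019 for the mean over times. MiR-29b stood at 0.078 for EtOH minus CHO before PHx and -0.099 for the change in diet difference. With slide as a block, miR-29a came to 0.021 for 24 h minus 1 h. For miR-29c the values were 0.018 for 1 h, 0.040 for 6 h, -0.056 for 24 h and -0.075 for 24 h minus 1 h. Within slide 1, miR-29a came to 0.017 for EtOH minus CHO before PHx and -0.041 for the change in diet difference. MiR-29b stood at -0.061 for the change in diet difference. MiR-29c came to 0.018 for 1 h and 0.040 for 6 h. Within slide 2, miR-29b came to 0.10 for EtOH minus CHO after PHx. The miR-29c values were 0.074 for EtOH minus CHO before PHx and -0.070 for 24 h. With the pool of animals as a replicate block, miR-29a came to 0.074 for 24 h, 0.018 for the mean over times and 0.14 for 24 h minus 1 h. MiR-29b came to 0.013 for 6 h. For miR-29c the values were 0.039 for 1 h, 0.019 for 6 h, -0.022 for 12 h and -0.0051 for 24 h minus 1 h. With the set of pools as a replicate block, miR-29a came to 0.056 for 24 h, 0.014 for the mean over times and 0.12 for 24 h minus 1 h. MiR-29b stood at 0.013 for 6 h. MiR-29c came to 0.039 for 1 h, 0.019 for 6 h and -0.022 for 12 h.

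With single arrays left out, miR-29a ran from -0.037 to 0.017 for the mean over times, from -0.058 to 0.046 for the change in diet difference and from -0.099 to 0.0058 for EtOH minus CHO before PHx. MiR-29b ran from -0.12 to 0.0084 for EtOH minus CHO after PHx and from -0.12 to 0.042 for 6 h. MiR-29c ran from -0.14 to 0.033 for EtOH minus CHO before PHx, from -0.014 to 0.074 for the mean over times, from -0.091 to 0.0022 for 6 h and from -0.14 to 0.037 for the change in diet difference.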
